A study of Mus musculus with 6 samples.

Results

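Fanconi and homologous recombination repair genes were compared between early blood progenitors with and without a signal from a Hes1-GFP reporter. The set held 38 genes, taken by platform gene symbol, and 36 of them had a probe set with that symbol alone, out of 18194 genes measured. Xrcc2 and Rbbp8 were not analysed here. The cells were lineage-negative, cKit-positive and Sca1-positive (LSK) bone marrow cells of mice aged 6 weeks. All mice of both groups carried 1 GFP and 1 wild-type allele of Hes1, which encodes a transcriptional repressor induced by Notch, and the labels list no treatment. There were 3 arrays of GFP-positive and 3 of GFP-negative cells, and in each group replicate 1 was female and replicates 2 and 3 were male. Nothing in the labels ties the arrays to different animals, so the p-values reflect the spread among these arrays, part or all of which may be technical.

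The Fanconi pathway repairs DNA strands that are covalently joined to each other. A core complex of Fanconi proteins attaches ubiquitin to the FANCD2 and FANCI pair, nucleases cut the joined strands, and the break is mended by homologous recombination, which copies the sister chromatid. Blood stem cells are known to depend on the pathway, and its loss in people causes bone marrow failure. Most of these genes are used in S and G2 phase, and many are known targets of E2F factors, which drive transcription at the start of S phase.

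Values are log2 intensities of 1 probe set per gene, the one with the highest mean over the 6 arrays, and a log2 fold change is the GFP-positive mean less the GFP-negative mean. Where the 3 values of a group are given they stand in the order of replicates 1, 2 and 3. The labels do not say that same-numbered arrays belong together, so differences within a replicate number rest on the numbering. The arrays correlated with each other at 0.925 to 0.951. Kit lay between 9.69 and 10.72 and Cd34 between 11.48 and 12.43 on the 6 arrays, and Ly6a, which encodes Sca1, was not analysed here. Of 7 lineage markers measured, Cd79b of B cells lay between 8.81 and 10.48 and Cd4 of T cells between 8.23 and 9.92, both above the rough guides to background. Cd8a lay between 6.44 and 6.93 and the myeloid gene Itgam between 5.21 and 7.65, while Cd3e lay between 5.38 and 5.98, Cd3g between 4.21 and 5.56 and Ms4a1 between 3.33 and 3.57. The groups overlapped for all 7. Transcripts absent from 1 sex gave a rough guide to background, at 4.69 for the Y-linked genes in females and 5.59 for Xist in males. No member lay below either guide in both groups, while Rad51b and Rad54b had a GFP-negative mean below the higher guide. In sorted bulk samples, fewer cells that express a gene and less RNA per cell cannot be told apart.

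As a set, Fanconi and recombination genes lay modestly higher in GFP-positive cells in replicates 2 and 3 but not in replicate 1. The medians of the set by array overlapped between the groups, and no single gene passed the test. The median log2 fold change of the 36 genes was 0.39, against 0.01 over all genes, and 27 of the 36 (75%) were above 0, against 51.3% of all genes. By limma 0 members passed an adjusted p of 0.05, as did 0 (0.0%) of all genes, and the smallest adjusted p among the members was 0.504. In simulated data this test found 5.25% of log2 changes of 1, so the lack of calls says little about changes of that size. At an unadjusted p under 0.05 there were 4 members higher, 11.1% of those measured, where 3.33% of all genes were, and 0 lower, where 3.38% of all genes were. These 4 were Mre11a, Fancm, Rad51b and Rpa1. The count was 7 (6 higher, 1 lower; 19.4%, against 6.65% of all genes in either direction) without GFP-negative replicate 1. It was 2, both higher (5.56%, against 2.74% of all genes higher), without GFP-negative replicate 2 and 9, all higher (25%, against 4.09%), in the 4 male arrays alone. All 3 GFP-positive arrays lay above all GFP-negative ones in 5 members (13.9%, against 5.89% of all genes), these 4 and Rpa2. The reverse held for 0 members, against 5.51% of all genes. With 1 array left out the groups were apart in 5 to 14 members (13.9% to 38.9%, against 18.7% to 23.6% of all genes). Fewer arrays alone can raise this count. In some omissions, such as that of GFP-negative replicate 2 (13.9% against 18.7%), the members' share was below that of all genes. For 18 of the 36 members the log2 fold change was smaller than its standard error.

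**Figure D1:**
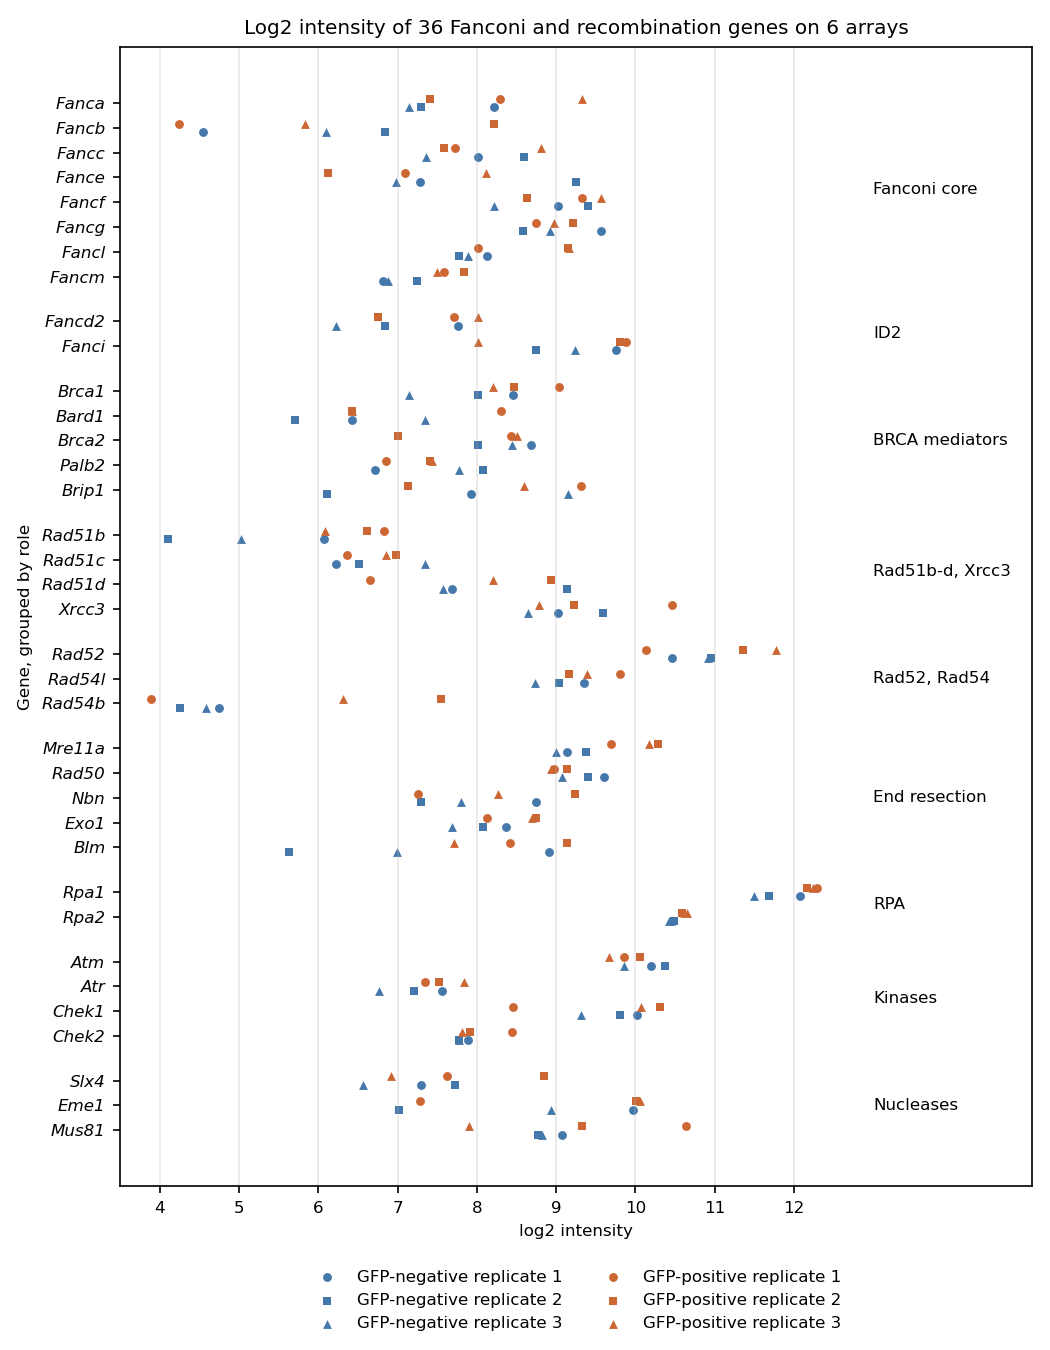
Log2 intensity (x axis) of each of the 36 genes (y axis, grouped by role) on the 3 GFP-negative (blue) and 3 GFP-positive (orange) arrays, with a marker shape for each replicate number. The colours do not overlap for Fancm, Rad51b, Mre11a, Rpa1 and Rpa2, and 6 genes, among them Eme1 and Blm, span over 3 log2 units over the 6 arrays.

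The promoters of the 5 genes whose groups did not overlap are shown for the motifs they hold, although the separation of Rad51b was marginal and a second probe set of Rpa2 went the other way. Each is the 120 bases before the RefSeq start (GRCm38.p6), 5′ to 3′ on the gene's strand. Capitals mark CCAAT, the box bound by NF-Y, and TTCCCGC, an E2F-type motif, on either strand (ATTGG and GCGGGAA on the other). The stretch of Mre11a lies at chr9:14784534-14784653 (+), Rpa1 at chr11:75348384-75348503 (-), Rpa2 at chr4:132768240-132768359 (+), Fancm at chr12:65075483-65075602 (+) and Rad51b, the first of its starts listed, at chr12:79297162-79297281 (+).
Mre11a: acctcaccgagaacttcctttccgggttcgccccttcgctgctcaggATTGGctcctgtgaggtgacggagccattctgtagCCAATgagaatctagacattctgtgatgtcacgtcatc
Rpa1: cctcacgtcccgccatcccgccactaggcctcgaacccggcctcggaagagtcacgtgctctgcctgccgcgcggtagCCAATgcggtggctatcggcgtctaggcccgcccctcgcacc
Rpa2: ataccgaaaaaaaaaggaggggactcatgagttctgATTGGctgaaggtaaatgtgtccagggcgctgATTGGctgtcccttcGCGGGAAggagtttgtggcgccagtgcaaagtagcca
Fancm: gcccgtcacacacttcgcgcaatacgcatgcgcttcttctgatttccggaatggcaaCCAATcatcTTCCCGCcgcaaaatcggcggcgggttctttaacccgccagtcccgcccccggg
Rad51b: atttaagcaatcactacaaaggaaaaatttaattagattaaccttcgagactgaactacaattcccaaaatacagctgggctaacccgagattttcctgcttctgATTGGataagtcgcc
All 5 stretches hold a CCAAT match, and those of Rpa2 and Fancm also hold TTCCCGC. The share of all genes with CCAAT in a stretch of this length was not counted. Among genes whose groups overlapped, the same stretch of Brca1 and Rad54l also holds CCAAT, and that of Fancl does not.

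Promoter windows of 300 bases (250 before to 50 after the start) were listed for 30 of the 36 genes. TTCCCGC or TTGGCGC, both E2F-type and searched on both strands, was found in 14 of the 30 (46.7%), against 11.7% of 14453 measured genes with a window and 7.79% of all 27025 genes with one. CCAAT was found in 19 of 30 (63.3%, against 42.0% of the measured genes), and TTTGAA, the CHR-type motif of mitotic genes, in 3 of 30 (10%, against 15.7%). CACGTG, the E-box, was in 10% of them (against 10.2%), and CACNAG, an N-box of the kind Hes factors bind, in 43.3% (against 46.1%). By the same search 16 of 29 S phase genes (55.2%) and 2 of 21 mitotic genes (9.52%) held an E2F-type match, and TTTGAA was in 76.2% of the mitotic genes. Within the set the 14 genes with an E2F-type match had a median log2 fold change of 0.20, with 9 above 0, and the 16 without one a median of 0.47, with 14 above 0. These matches are letters in a window, not binding sites.

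**Figure D2:**
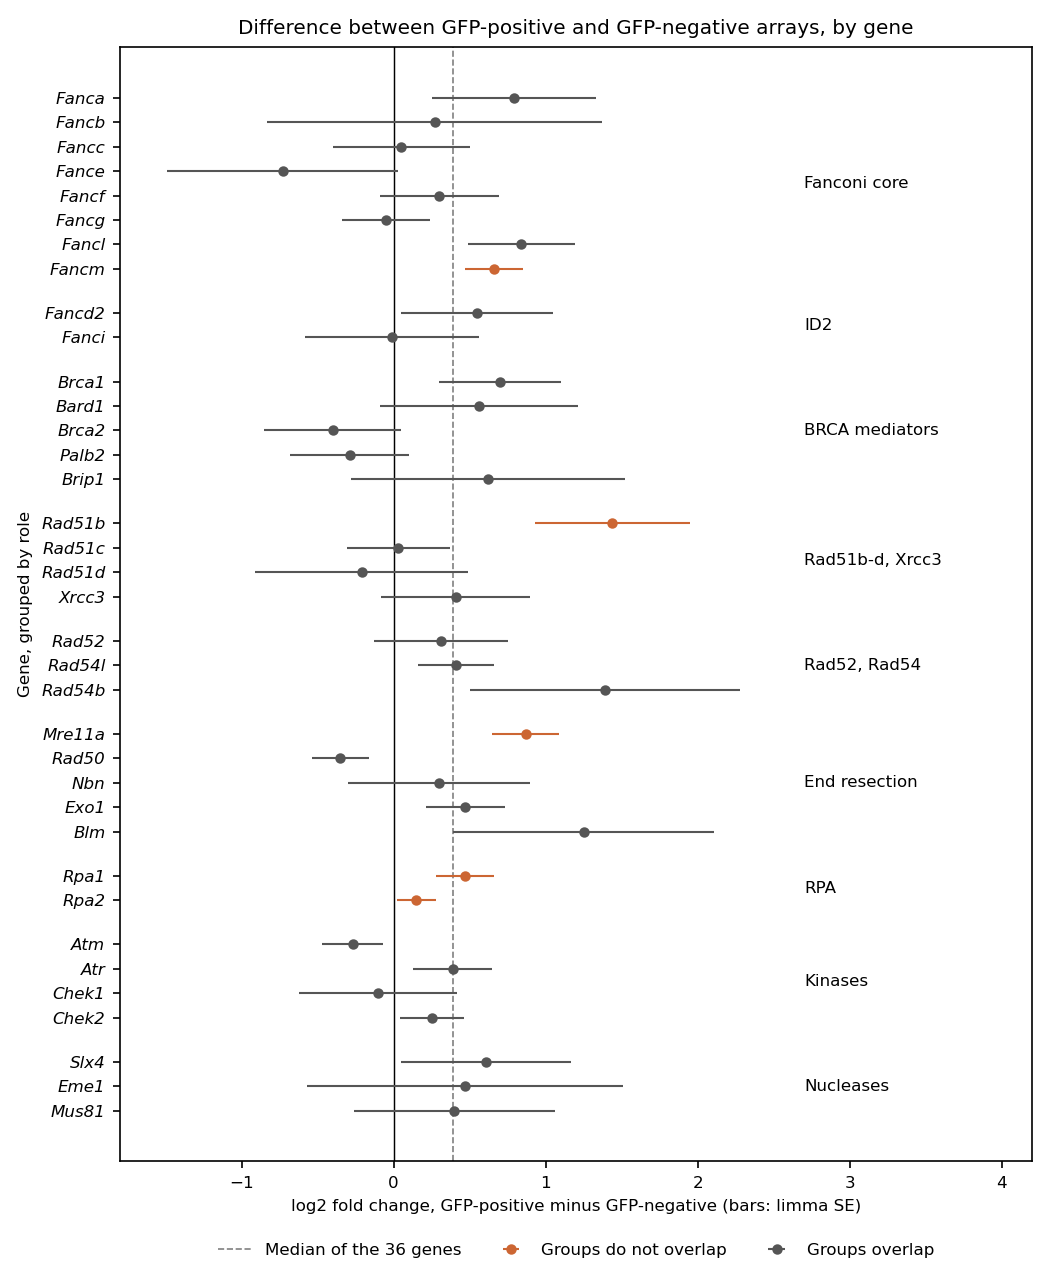
Log2 fold change with its standard error from limma (x axis) for each gene (y axis, grouped by role, n = 3 arrays per group), with genes whose groups do not overlap in orange. Of the 36 points 27 lie to the right of 0, around a median of 0.39 (dashed line). The bars of Fancb, Eme1, Brip1, Rad54b and Blm are the widest. The GFP-negative means of Rad51b and Rad54b lay below the higher guide to background, so the sizes of their differences are not exact.

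End sensing and resection genes prepare the broken DNA ends. Mre11a, the nuclease of the MRE11, RAD50 and NBN complex that first binds a break, read 9.14, 9.38 and 9.0 in the GFP-negative group and 9.69, 10.29 and 10.17 in the GFP-positive group. All GFP-positive arrays were above all GFP-negative ones, by 0.87 ± 0.22 on the log2 scale (SE, n = 3 per group; limma unadjusted p = 0.00703, adjusted p = 0.504). A second Mre11a probe set did not share this difference, at -0.29. Rad50, the ATPase partner that tethers the ends, lay the other way at -0.35 ± 0.19, with 9.60, 9.40 and 9.07 in GFP-negative against 8.97, 9.13 and 8.93 in GFP-positive arrays, which overlap only through GFP-negative replicate 3. It was lower within all 3 replicate numbers. Its other probe set, at -0.79, was near background, between 3.94 and 4.94, on all arrays but GFP-negative replicate 3 at 7.31. Nbn, the subunit that recruits ATM, was at 0.30 ± 0.60 and differed more within groups, from 7.26 to 9.24 among GFP-positive arrays. Exo1, an exonuclease of long-range resection, was at 0.47 ± 0.26, although its 3 probe sets ran from -1.34 to 0.75. Blm, the helicase lost in Bloom syndrome, was at 1.25 ± 0.86: GFP-negative arrays were at 8.91, 5.63 and 6.99 and GFP-positive ones at 8.42, 9.14 and 7.71. The Blm groups overlap, because GFP-negative replicate 1 lay above both GFP-positive replicates 1 and 3.

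RPA coats the single strands that resection exposes. Rpa1, its large subunit, read 12.08, 11.68 and 11.50 in GFP-negative cells and 12.29, 12.16 and 12.24 in GFP-positive cells. The groups did not overlap, with a difference of 0.47 ± 0.19 (limma unadjusted p = 0.0498, adjusted p = 0.745), and the GFP-positive arrays lay close together (SD 0.06 against 0.30). The other Rpa1 probe set showed the same, at 9.96, 9.73 and 9.77 against 10.44, 10.33 and 10.37, a difference of 0.56. Rpa2, the middle subunit, was nearly constant, at 10.47, 10.49 and 10.42 against 10.59, 10.59 and 10.65, a difference of 0.15 ± 0.13 (adjusted p = 0.962). Its second probe set went the other way by more, from 9.61, 9.95 and 10.10 down to 9.07, 8.79 and 9.23, a difference of -0.85 with no overlap. The array therefore gives no single direction for Rpa2.

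The Fanconi core complex carries the ubiquitin ligase of the pathway. Of its 8 genes 6 were above 0, with a median of 0.28. Fancm, the DNA translocase that anchors the complex at stalled forks, read 6.82, 7.24 and 6.88 without GFP and 7.58, 7.84 and 7.50 with it. This is a difference of 0.66 ± 0.19 (limma unadjusted p = 0.0124, adjusted p = 0.545), similar within each replicate number (0.76, 0.60 and 0.63), while its 2 other probe sets were at 0.20 and -0.22. Fancl, the ligase subunit itself, was at 8.13, 7.77 and 7.89 against 8.01, 9.15 and 9.16, so that GFP-positive replicates 2 and 3 were high and replicate 1 lay among the GFP-negative arrays. Its difference was 0.84 ± 0.35, and its other probe set was at 0.80. That probe set was high only in GFP-positive replicate 2, at 8.66, and lay between 5.27 and 6.76 on the other arrays. Fanca, the gene most often mutated in Fanconi anaemia, was at 0.79 ± 0.54, with GFP-positive replicate 3 the highest array at 9.33 and the GFP-positive arrays of replicates 1 and 2 only 0.07 and 0.12 above their GFP-negative counterparts. The scaffold subunits Fancf and Fancg were at 0.30 ± 0.39 and -0.05 ± 0.29. Fancc was at 0.05 ± 0.45 and the X-linked Fancb at 0.27 ± 1.10. Fance, which links the core to FANCD2, was at -0.73 ± 0.76, and 1 array, GFP-negative replicate 2 at 9.25, stood above the rest, which lay between 6.12 and 8.11.

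The core complex acts on FANCD2 and FANCI, which clamp onto DNA together. Fancd2 read 7.76, 6.84 and 6.22 without GFP and 7.71, 6.75 and 8.02 with it. Replicates 1 and 2 differed by -0.05 and -0.09 and replicate 3 by 1.80, for a mean difference of 0.55 ± 0.50 (limma adjusted p = 0.962). All 4 Fancd2 probe sets were above 0, from 0.26 to 1.00, but those at either end were near background. The one at 0.26 lay between 3.61 and 4.02. The one at 1.00 lay between 4.03 and 4.37 on all arrays but GFP-positive replicate 3, at 6.92. Its partner Fanci was at -0.01 ± 0.57, with GFP-positive replicate 3 the lowest of the 6 arrays at 8.01, so the partners went in opposite directions on that array.

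The BRCA mediators act at the resected break ahead of strand pairing. Brca1, which promotes resection, read 8.46, 8.01 and 7.14 without GFP and 9.03, 8.47 and 8.20 with it. The ranges overlapped, but within each replicate number the GFP-positive array was higher, by 0.57, 0.46 and 1.06, for a difference of 0.70 ± 0.40 (limma adjusted p = 0.879). All 4 Brca1 probe sets were above 0, from 0.10 to 0.70, although the one at 0.12 was dim, between 4.53 and 5.60. Its binding partner Bard1 was at 0.56 ± 0.65, high in GFP-positive replicate 1 at 8.31 and at 6.42 in the others. Brip1, a helicase that binds BRCA1, was at 0.62 ± 0.90 and ranged from 6.11 to 9.15 within the GFP-negative group. Brca2, the gene of inherited breast and ovarian cancer that acts after Brca1, and its bridge to BRCA1, Palb2, had differences of -0.40 ± 0.45 and -0.29 ± 0.39. Of the 5 mediators 3 were thus above and 2 below 0, none beyond the threshold.

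Rad51b, Rad51c, Rad51d and Xrcc3 encode related proteins that work in complexes with each other during recombination. Rad51b, which forms a complex with RAD51C and RAD51D, read 6.07, 4.11 and 5.03 without GFP and 6.83, 6.62 and 6.08 with it. The groups were apart by the smallest of margins (6.07 against 6.08) and overlapped after renewed quantile or median normalization, with a difference of 1.44 ± 0.51 (limma unadjusted p = 0.0311, adjusted p = 0.667). GFP-negative replicates 2 and 3 were below the higher guide to background, so the size of the difference is not exact, and its other probe set, at -0.71, was dim, between 3.45 and 6.08. Its complex partners Rad51c and Rad51d were at 0.03 ± 0.34 and -0.21 ± 0.70, and Xrcc3, which pairs with RAD51C, at 0.41 ± 0.49 with 1 high array, GFP-positive replicate 1 at 10.46.

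Rad52 and the Rad54 genes act on strand annealing and strand pairing, and all 3 were above 0. Rad54l, a motor that drives strand exchange, was at 9.35, 9.03 and 8.73 against 9.81, 9.16 and 9.39, higher in the GFP-positive array of each replicate number although the groups overlapped. Its difference was 0.41 ± 0.25 (limma adjusted p = 0.902), and its 4 probe sets ran from 0.20 to 0.97. In the probe set at 0.97 the groups did not overlap. Rad54b, a relative of Rad54l, was close to background at 4.75, 4.26 and 4.58 in GFP-negative arrays and at 3.89 in GFP-positive replicate 1, but at 7.55 and 6.31 in GFP-positive replicates 2 and 3. Its mean difference of 1.39 ± 0.89 therefore joins 1 array without and 2 arrays with signal. A pair of probe sets shared with the symbol Fsbp, left out of the test, were at 0.39 and 0.62. Rad52, an annealing factor, was at 0.31 ± 0.44.

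Checkpoint kinases sense damage and halt the cycle, and they went both ways, with 2 above and 2 below 0. Atr, which responds to bare single strands, was at 7.56, 7.21 and 6.76 against 7.34, 7.52 and 7.84, a difference of 0.39 ± 0.26 (limma adjusted p = 0.930), with overlapping groups. Atm, which responds to double-strand breaks, was at -0.27 ± 0.20 and lower within all 3 replicate numbers, as was Rad50, and its other probe set was at -0.54. The Atm groups overlapped, with GFP-negative replicate 3 at 9.85 and GFP-positive replicate 2 at 10.06. Chek1, the target of ATR, was at 10.02, 9.81 and 9.31 against 8.45, 10.31 and 10.07: GFP-positive replicate 1 was the lowest array and the other two were the highest. Its 5 probe sets ran from -0.65 to 0.30. Chek2, the target of ATM, was at 0.25 ± 0.21.

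Junction nucleases cut joined strands and crossed intermediates. Slx4, the scaffold that gathers them, was at 7.29, 7.73 and 6.56 against 7.62, 8.85 and 6.92. It was higher by 0.33, 1.12 and 0.36 within the replicate numbers and by 0.61 ± 0.56 on average (limma adjusted p = 0.962). The Slx4 groups overlapped, since GFP-negative replicate 2 lay above GFP-positive replicates 1 and 3. Eme1, a non-catalytic partner of MUS81, was at 9.97, 7.02 and 8.94 against 7.28, 10.01 and 10.06. It fell into high and low arrays in both groups, and its difference of 0.47 ± 1.04 was smaller than its error. Mus81, the catalytic partner, was at 0.40 ± 0.66 and reached both the highest and the lowest value of its 6 arrays within the GFP-positive group, 10.64 and 7.90.

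**Figure D3:**
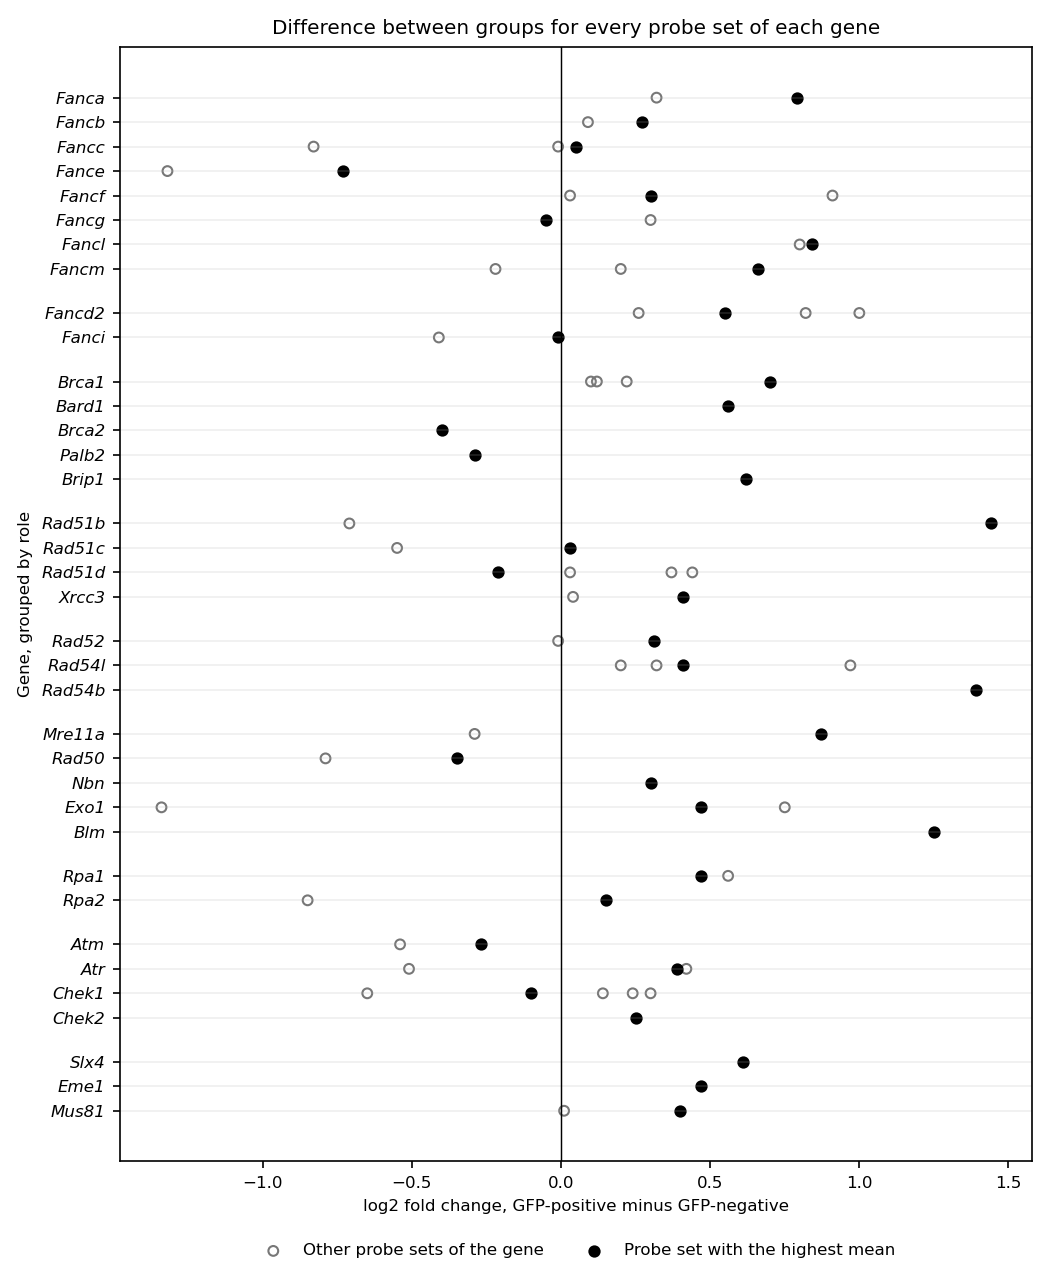
Log2 fold change (x axis) of each probe set of each gene (y axis, grouped by role), filled for the probe set with the highest mean and open for the others. All probe sets of Fancd2, Brca1, Rad54l, Rpa1 and Fancl lie to the right of 0, while those of Rpa2, Mre11a, Exo1 and Rad51b lie on both sides. The Fancd2 probe sets at 0.26 and 1.00 were near background.

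Several probe sets, dim ones included, stood for 26 of the 36 genes. In 10 of these all were above 0, in 4 (Atm, Fance, Fanci and Rad50) all were below 0, and in 12 (46.2%) the signs were mixed, against 54.5% of the 9012 genes with several probe sets. When all probe sets of a gene were averaged, the median of the 36 genes was 0.22 and 25 were above 0. Of the 4 genes at an unadjusted p under 0.05, Rpa1 kept it by that measure, while Mre11a, Fancm and Rad51b did not. Rad54l came under it by that measure, at 0.477 (limma unadjusted p = 0.0483, adjusted p = 0.696).

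The difference was not even over the replicate numbers. Within replicate 1, the female arrays, 18 of the 36 genes were higher in the GFP-positive array, with a median difference of 0.01, where 57.3% of all genes were higher, with a median of 0.08. Within replicates 2 and 3, the male arrays, 26 and 27 were higher, where 45.5% and 48.4% of all genes were. The medians of the 36 genes were 0.48 and 0.64, where those of all genes were -0.04 and -0.02. In 10 genes (27.8%, against 13.8% of all genes) the GFP-positive array was higher in all 3 numbers: Fanca, Fancm, Brca1, Rad51b, Rad54l, Mre11a, Rpa1, Rpa2, Chek2 and Slx4. The labels do not pair arrays by number, so another matching of the male arrays could change these counts. Sex and replicate 1 cannot be told apart, since each group had 1 female array. A test of whether the change differed between sexes, which assumes that the lone female arrays vary as the male ones do, gave a smallest limma adjusted p of 0.496 among the members. At an unadjusted p under 0.05 there were 6 members (16.7%, against 7.24% of all genes): Fancg, Fancl, Rad54b, Nbn, Chek1 and Eme1.

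Among GFP-negative arrays replicate 1 was the highest in 20 of the 36 genes (55.6%, against 32.7% of all genes). Relative to each gene's GFP-negative mean, the median over the 36 genes was 0.20, 0.01 and -0.16 without GFP and 0.14, 0.37 and 0.34 with it. The median spread within groups was an SD of 0.64 for the 36 genes and 0.31 for all genes.

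**Figure D4:**
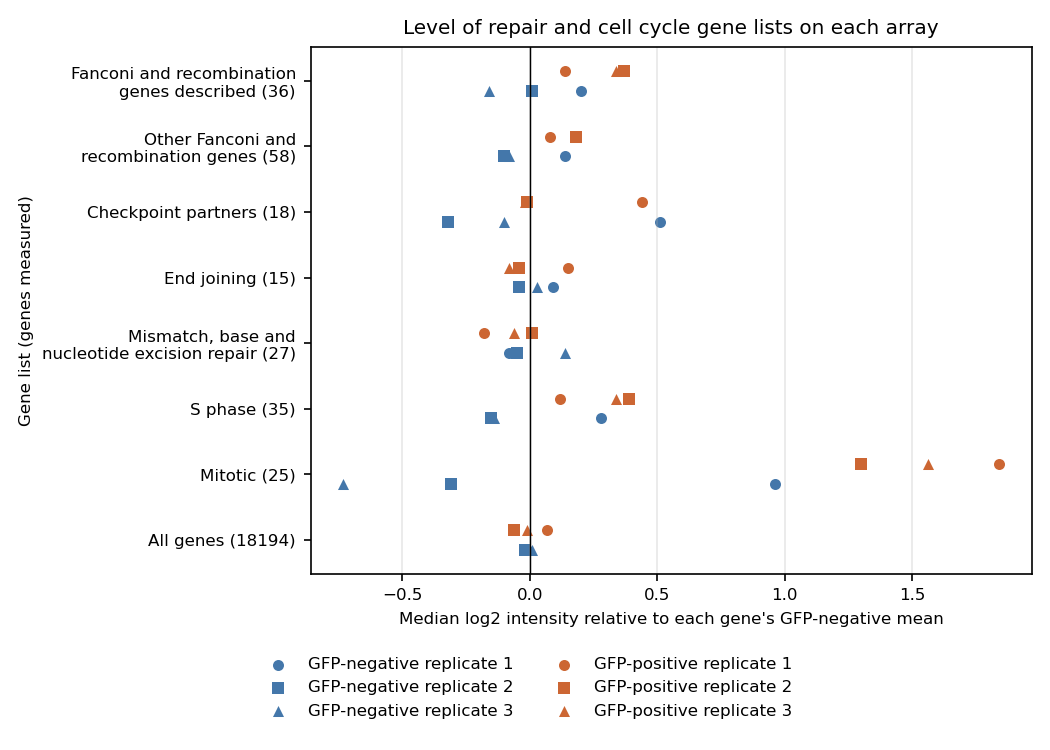
Median log2 intensity over each gene list relative to each gene's GFP-negative mean (x axis), for each list (y axis, genes measured in brackets) on the 3 GFP-negative (blue) and 3 GFP-positive (orange) arrays. For the Fanconi and recombination genes and the S phase genes GFP-negative replicate 1 is at 0.20 and 0.28 and GFP-positive replicate 1 at 0.14 and 0.12, and the mitotic genes span from -0.73 to 1.84.

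Cell cycle genes differed over the same arrays. The 35 S phase genes measured had medians of 0.28, -0.15 and -0.14 without GFP and 0.12, 0.39 and 0.34 with it, and a median log2 fold change of 0.26, with 30 above 0. Their summed intensity lay between 60100 and 78000 in GFP-negative and between 70400 and 80400 in GFP-positive arrays. Those with an unadjusted p below 0.05 were 4 of the 35 higher, where 3.33% of all genes were, and 0 lower. These 4 were Tk1, a thymidine kinase, at 0.95 ± 0.20, the cyclin Ccne1 at 1.18 ± 0.27, Rrm2, of deoxynucleotide synthesis, at 1.04 ± 0.30 and the replication factor Mcm10 at 1.03 ± 0.34. The 25 mitotic genes measured had a median of 1.55, all above 0, with 16 at an unadjusted p under 0.05, against 3.33% of all genes higher. The smallest p (limma unadjusted p = 0.00064) was that of the kinase Aurka, at 2.63 ± 0.41. Their summed intensity lay between 9200 and 26000 in GFP-negative arrays, highest in replicate 1, and between 33400 and 49700 in GFP-positive arrays. No gene of either list passed over all genes by limma (smallest adjusted p = 0.424 and 0.254). Their part in the difference of the repair genes was not tested.

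Markers of other cells also differed between arrays. The summed intensity of 12 endothelial and stromal genes was 21100 in GFP-positive replicate 1 and between 2730 and 4710 on the other 5 arrays. Single genes of that list were also higher on all 3 GFP-positive arrays without overlap, in 4 of the 12 (against 5.89% of all genes). These were Cxcl12, Vcam1, Sparc and Tie1. Of the 12 genes 9 were above 0 and 3 below, among them Pecam1 at -0.56 and Pdgfrb at -0.21. Cdh5, Kdr and Col1a1 were high only in GFP-positive replicate 1. Cxcl12, a chemokine of marrow stroma, read 5.34, 5.52 and 5.38 without GFP and 12.52, 9.27 and 8.33 with it, a difference of 4.63 ± 1.04 (limma adjusted p = 0.454) that was 2.48 when its probe sets were averaged. Without GFP-positive replicate 1 the median of the 36 repair genes was 0.44, with 27 above 0 and 6 at an unadjusted p under 0.05, all higher (16.7%, against 3.76% of all genes). That omission left Cxcl12 at 3.39 and also took out a female array, so it was no test of the part of stromal cells. The sum over 7 erythroid genes lay between 813 and 1040 in GFP-negative and between 4570 and 7050 in GFP-positive arrays, and 6 of the 7 were higher without overlap, while the globin gene Hba-a1 lay between 4.45 and 5.16. The sum over 7 lineage markers lay between 1680 and 2210 and between 1300 and 2130. Genes of the sorted cells' own identity also differed between arrays: the sum over 6 of them lay between 14500 and 15100 in GFP-negative and between 9720 and 13000 in GFP-positive arrays. Cd34 was lower without overlap (-0.63 ± 0.17; limma unadjusted p = 0.00926, adjusted p = 0.528), as were Flt3 of multipotent progenitors (-0.89 ± 0.38) and the pan-leukocyte gene Ptprc (-0.28 ± 0.16, but 0.18 with its probe sets averaged), and Procr of stem cells was higher (0.77 ± 0.25). The part of endothelial, erythroid or other cells, or of a different mix of progenitors, in the difference was not tested.

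Other genes of the same pathways, from a separate list, had a smaller median. Of 58 measured, 37 were above 0, with a median of 0.12. Those with an unadjusted p below 0.05 were 3 of the 58 higher, where 3.33% of all genes were, and 0 lower. Mnd1, which acts in meiotic strand exchange, was at 0.68 ± 0.24, the resection nuclease and helicase Dna2 at 1.71 ± 0.62 and Hrob, which recruits a helicase to recombination sites, at 0.82 ± 0.32, with groups that did not overlap in all 3 (limma adjusted p between 0.667 and 0.735). Of 18 checkpoint partners 12 were above 0, with a median of 0.12. Clspn, the adaptor through which ATR activates CHK1, was at 8.52, 7.16 and 5.64 against 8.44, 9.01 and 9.26, a difference of 1.79 ± 0.72, and the phosphatase Cdc25b at 2.14 ± 0.83. For the gene that carries the reporter, Hes1 itself, the difference was 0.54 ± 0.24 (limma adjusted p = 0.78).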

How the data were processed

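The table deposited by the authors holds linear intensities of 45101 probe sets on 6 Affymetrix arrays. The submitters' processing notes name RMA, which corrects background, normalises arrays by quantiles and summarises probes, and which understates changes of dim genes. RMA's settings: not given in the sources used here. Array medians lay between 74.0 and 78.5 and the minimum was 4.12, so log2 was taken with no pseudocount.

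Genes came from the platform's annotation: 34958 probe sets carried 1 symbol, and those with several (932) or none listed (9211) were left out. The probe set with the highest mean stood for a gene, giving 18194 genes without a filter. Groups were compared by limma 3.58.1 (lmFit and eBayes, R 4.3.3) with no covariates and Benjamini-Hochberg adjustment over all genes, with a threshold of 0.05. The fit was tested on 20 simulated data sets with 200 changed genes each, drawn from the real means and spreads. It recovered 5.25% of log2 changes of 1, 67.2% of those of 2 and 92.9% of those of 4, with 4.55 false calls per run. All measured members are named. Each array's value is given for members with an unadjusted p under 0.05 and for the smallest p in each role group, and up to 6 genes of smallest p under 0.05 were open to naming in each other list; further genes shown by array (Rad50, Blm, Fancl, Chek1, Rad54b, Eme1 and the like) and cell type markers named singly were chosen after their values were seen. The sex difference was tested by an interaction term, also added after the data were seen. Members and lists were chosen with earlier results of these data known. Promoters are from RefSeq tables of GRCm38.p6. Plots used matplotlib 3.10.9 (Python 3.11.15). The number of arrays limits the precision.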

Additional observations from a re-analysis of the deposited data

How the results depend on the processing

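The 36 genes kept a median above 0 under all 10 alternatives and all 6 omissions of an array, where it lay between 0.22 and 0.51, the lowest when all probe sets of a gene were averaged. By limma 0 members passed over all genes in any of them. Over all genes 1 and 2 passed when genes below the 40th or 60th percentile were left out, 5 without GFP-positive replicate 3 and 0 in the other omissions and alternatives. Members at an unadjusted p under 0.05, 4 as reported, were 2 with the mean of probe sets (5.56%, against 7.15% of all genes in either direction), 2 with the 40th percentile filter (6.06%, against 8.41%), 1 with the 60th percentile filter (4.17%, against 8.97%), 9 in the 4 male arrays alone (25%, against 7.65%) and 2 to 7 with an array left out (5.56% to 19.4%, against 5.52% to 7.52%). Members whose groups did not overlap, 5 as reported (13.9%, against 11.4% of all genes in either direction), were 3 with the 60th percentile filter, which keeps 24 members (12.5%, against 14.8%), 20 in the male arrays (55.6%, against 36.7%) and 5 to 14 with an array left out (13.9% to 38.9%, against 18.7% to 23.6%), where fewer arrays part more easily. Mre11a had an unadjusted p under 0.05 in 15 of 16 alternatives, Fancm in 12 of the 15 that measured it, Rad51b in 8 of 14 and Rpa1 in 6 of 16.

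With the replicate number as a block there were 4 members at an unadjusted p under 0.05 (11.1%, against 7.64% of all genes; Brca1 in place of Rpa1), a median of 0.39 and 0 genes past the threshold. Deviations of same-numbered arrays from their group means correlated at 0.124, 0.0503 and 0.0922, each array best with its own number. Replicate 1 was female in both groups, so its match follows in part from sex. Deviations within a group are also tied to each other. The correlations therefore cannot show whether same-numbered arrays came from the same animals.

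Of the 36 genes 14 were above 0 and 4 below 0 in every alternative that measured them, and the other 18, none past the threshold, changed sign in at least 1. With the mean of probe sets Fancc was at -0.264, Fancg at 0.127, Rad51c at -0.259, Rad51d at 0.157, Exo1 at -0.0373 and Rpa2 at -0.351. In the male arrays Fancg was at 0.341, Bard1 at -0.103, Rad51c at -0.0176, Rad51d at 0.211, Xrcc3 at -0.109, Chek1 at 0.629 and Mus81 at -0.182. Array weights gave Chek1 0.0942 and Mus81 -0.0827, and renewed quantile normalization gave Fanci 0.0313 and Rad51c -0.00827. With an array left out Fancb ran from -0.791 to 1.20, Fancc from -0.337 to 0.348, Fancf from -0.037 to 0.571, Fancg from -0.268 to 0.228, Fanci from -0.336 to 0.597, Bard1 from -0.0712 to 0.981, Brca2 from -0.659 to 0.0887, Brip1 from -0.19 to 1.33, Rad51c from -0.203 to 0.363, Rad51d from -0.711 to 0.432, Xrcc3 from -0.0777 to 0.762, Rad52 from -0.026 to 0.793, Nbn from -0.189 to 0.803, Chek1 from -0.452 to 0.478, Eme1 from -0.338 to 1.39 and Mus81 from -0.275 to 1.09. The cause was not tested.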

Other observations

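Repair pathways outside the Fanconi and recombination genes had medians on either side of that of all genes, 0.01. The 15 end joining genes measured had a median log2 fold change of 0.08, with 9 above 0. The one with an unadjusted p below 0.05 was Dntt, the polymerase that adds bases at antigen receptor joints, at 12.50, 12.66 and 12.71 without GFP and 12.00, 12.16 and 12.28 with it (-0.48 ± 0.16; limma adjusted p = 0.634). The 27 genes of mismatch, base and nucleotide excision repair had a median of -0.11, with 8 above and 19 below 0, and 3 of them were lower without overlap between the groups (against 5.51% of all genes) and 1 higher. Ercc5, which cuts beside bulky lesions, was at -1.53 ± 0.38 and Xpc, which detects them, at -0.93 ± 0.35, while Neil3, a base-removing enzyme that also acts on joined strands, was at 1.61 ± 0.55. The groups of all 3 did not overlap, and none passed over all genes (limma adjusted p between 0.504 and 0.707).

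In Rpa2 both probe sets were well above the guides to background and both separated the groups, in opposite directions (0.15 and -0.85). Which transcripts each detects was not analysed here.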
